A study of Mus musculus with 12 samples.

Results

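The BCL2 family genes described here are Bcl2a1a, Bcl2a1b, Bcl2a1d, Bcl2l1, Mcl1, Bcl2, Bax, Bak1, Bcl2l11 and Bbc3, 10 of the 57010 genes in the deposited count table. They were chosen by name, through the Ensembl gene that carries each symbol, and all 10 passed the filter on low counts that left 15943 genes for testing. The counts come from bulk RNA-seq of large peritoneal macrophages (LPM), the resident macrophages of the abdominal cavity, sorted from female mice as F4/80 high, MHCII low cells. Each of 4 groups has 3 libraries. WT naive and Tim4KO naive are LPM of uninjected wild-type mice and of mice lacking Tim4, the phosphatidylserine receptor encoded by Timd4 with which these macrophages bind dying cells. WT ID8 and Tim4KO ID8 are LPM taken 24 h after 8-week-old mice received ID8ZGO cells, mouse ovarian tumour cells that express ZsGreen and OVA, into the peritoneum, and these LPM were also gated as ZsGreen+. Naive LPM carried no such gate, so the injection and the selection for cells holding tumour-derived ZsGreen cannot be told apart in a comparison of ID8 with naive. How the Tim4 allele was made, the age of the naive mice and whether a library is 1 animal or a pool are not given in the sources used here.

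BCL2 family proteins decide whether the outer mitochondrial membrane stays intact. The pro-survival members (the A1 proteins encoded by the Bcl2a1 genes, BCL-XL encoded by Bcl2l1, MCL1 and BCL2) hold the pore-forming effectors BAX and BAK in check, and the BH3-only proteins, among them BIM (Bcl2l11) and PUMA (Bbc3), bind the pro-survival members or the effectors and tip the balance to membrane permeabilisation, cytochrome c release and caspase activation. In macrophages, A1 is an inducible member and MCL1 a constitutive one with a short-lived protein.

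Total counts ran from 7358559 (Tim4KO naive 2) to 23170244 (WT ID8 3), and 3 counts, the floor used here, correspond to 0.130 to 0.408 CPM (counts scaled to library size, TMM-normalised) across libraries. Timd4 followed its labels, at 1315 ± 159 CPM (naive) and 1150 ± 286 (ID8) in WT and 7.41 ± 0.262 and 1.72 ± 0.291 in Tim4KO (mean ± SD, n = 3, as throughout). The 13 LPM markers, Timd4 among them, summed to 21680 to 29220 CPM in every library. Single markers moved in both directions. Mean Alox15 was 11290 and 11270 CPM in WT and Tim4KO naive and 5493 and 7684 after ID8. Mean Adgre1 was 3157 and 3362 against 4747 and 4343. Summed markers of other cells also differed between naive and ID8 libraries, without a test. The 10 neutrophil genes summed to 8.75 to 11.2 CPM in the naive libraries and 12 to 33.9 in the ID8 libraries, with S100a8 at 4.401 to 24.8 CPM. Group means of S100a9 were 0.200 and 0.512 CPM in WT and Tim4KO naive and 2.14 and 1.37 after ID8, those of Cxcr2 0.277 and 0.364 against 1.52 and 1.15, and those of Retnlg 0.238 and 0.790 against 2.11 and 8.69. Mpo went the other way, with means of 0.389 and 0.490 CPM in WT and Tim4KO naive and 0.124 and 0.211 after ID8. Elane was also lower, at 0.498 and 0.570 against 0.0743 and 0.306. Mean Mmp8 was 1.64 and 0.779 CPM when naive and 0.669 and 0.884 after ID8. Ly6g and Ngp were at 0 in 6 of 12 libraries each and reached at most 0.231 and 0.225 CPM. The 10 small peritoneal macrophage or dendritic cell genes summed to 97.1 to 121 CPM in the naive and 55.3 to 118 in the ID8 libraries. These genes moved in both directions. Mean Cd209a was 34.5 and 27.0 CPM in WT and Tim4KO naive and 4.92 and 5.20 after ID8. Mean Clec10a was 24.6 and 27.8 against 34.1 and 28.8, and Mgl2 7.84 and 6.13 against 16.25 and 7.11. Ccr2 was nearly level, at 9.99 and 10.6 against 10.1 and 11.7. The 8 mast cell genes summed to 14.3 to 42.5 CPM in the naive and 2.99 to 9.53 in the ID8 libraries, and the 8 B cell genes to 10.4 to 27.4 and 4.04 to 9.78. The 10 epithelial or tumour cell genes summed to 5.74 to 25.1 CPM in the naive and 1.64 to 5.54 in the ID8 libraries, with Lgals7 at 0 in 6 libraries. WT ID8 3 stood apart from the other 11 libraries, with 2329 CPM summed over 12 cell cycle genes where the others had 151 to 432, and with the lowest summed level of 1713 olfactory and vomeronasal receptor genes (5.57 CPM against 39.5 to 862 elsewhere). Results that rest on it are given with and without it, and the part of these differences in the results below was not tested except where a value without the library is printed.

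After the challenge, WT LPM had more Bcl2a1a, Bcl2a1d, Bcl2l1, Bax and Bak1 RNA and less Bcl2a1b and Bcl2l11 RNA than naive WT LPM. In Tim4KO LPM, Bcl2a1a, Bcl2a1d, Bax and Bak1 rose and Bcl2l11 fell. With edgeR's quasi-likelihood test fitted over all 15943 genes and a call at a Benjamini-Hochberg adjusted p under 0.05, 7 of 10 members were called in WT, where 31.8% of all genes were called. Of these members 5 were higher (19.5% of all genes) and 2 lower (12.3%). Of the 2 lower, Bcl2a1b was the only pro-survival member, with an edgeR adjusted p of 0.049, close to the threshold. It was called in 3 of the 12 fits that each left out 1 library. Counts summed over it and its near-identical copies Bcl2a1a and Bcl2a1d were higher (log2 0.62 ± 0.19, edgeR adjusted p = 0.0217). That call held in 10 of those 12 fits. In Tim4KO, 5 of 10 were called against 16.6% of all genes, 4 of them higher (11.5% of all genes) and 1 lower (5.06%). The median log2 change of the members was 0.28 in WT and 0.33 in Tim4KO, beside -0.04 and -0.05 over all genes. In bulk RNA, fewer cells of a type and less RNA per cell cannot be told apart. Under upper-quartile scaling the median of all genes moved to -0.28 in WT and -0.17 in Tim4KO and the share of calls that were higher from 61.3% to 33.9% and from 69.5% to 48.7%. The members called were then 4 higher and 4 lower in WT, and 3 higher and 2 lower in Tim4KO. Of all 15943 genes, 5307 were then called in WT (33.9% of them higher) and 2716 in Tim4KO (48.7% of them higher).

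**Figure D1:**
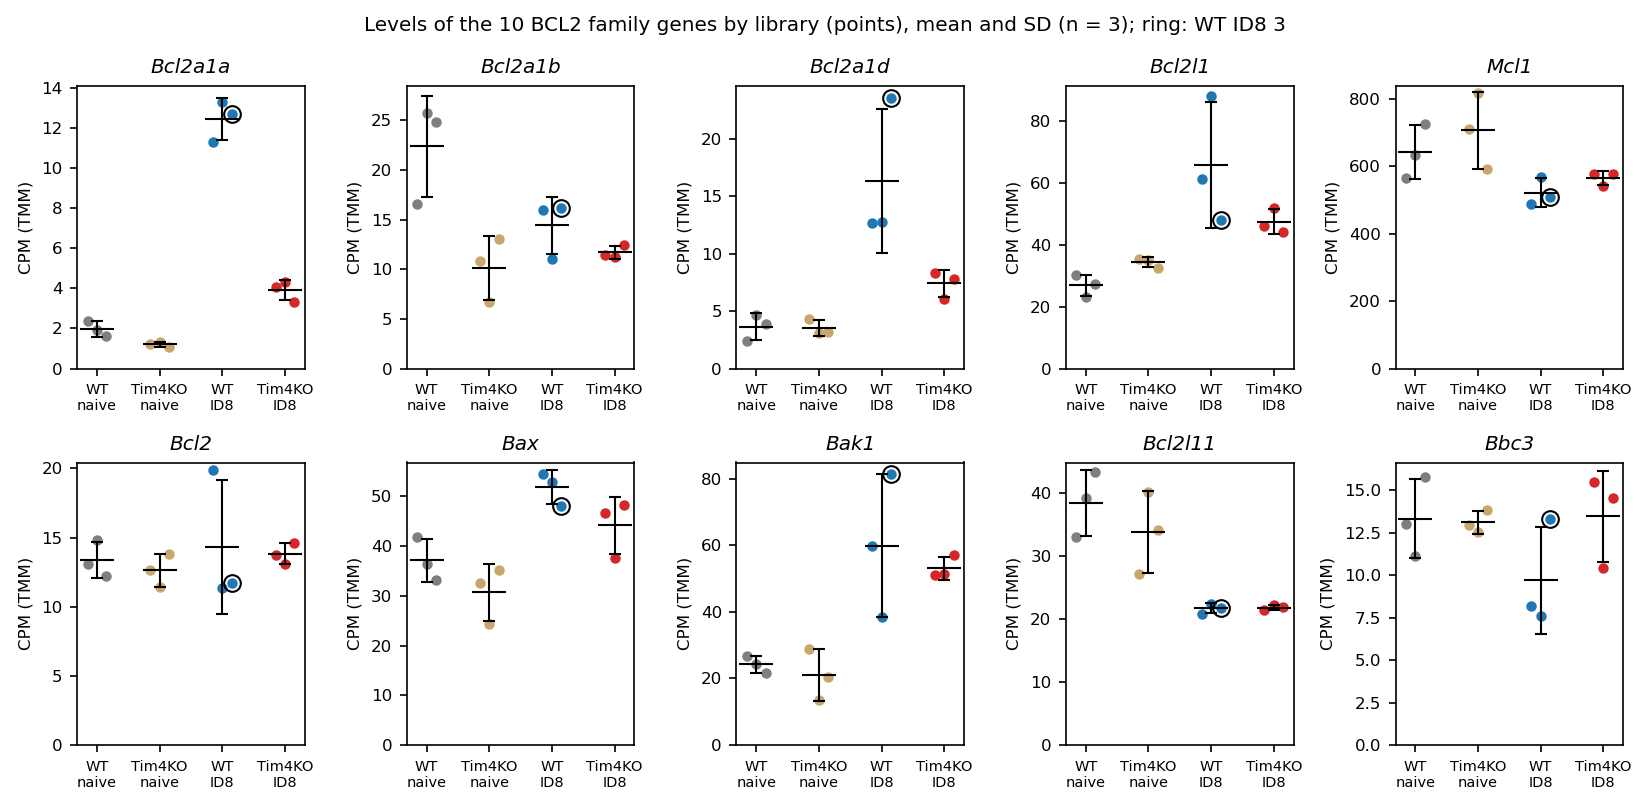
Levels of the 10 genes in CPM (TMM-normalised, linear axis from 0 in each panel). Points are the 3 libraries of each group, the horizontal line and bar the mean and SD, and the ring marks WT ID8 3; the ID8 libraries of both genotypes lie above their naive libraries for Bcl2a1a, Bcl2a1d, Bax and Bak1 and below them for Bcl2l11.

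Bcl2a1a, Bcl2a1b and Bcl2a1d are copies of the gene for A1, a pro-survival protein of blood cells, and lie on chromosome 9 at chr9:88956920-88962416, chr9:89199273-89207838 and chr9:88723288-88731850 (RefSeq, GRCm38.p6). Their coding sequences (GENCODE vM21) are 519 bases long and differ at 12 positions among the 3. Bcl2a1a and Bcl2a1b differ at 11 positions (97.9% identity), Bcl2a1a and Bcl2a1d at 7 (98.7%), and Bcl2a1b and Bcl2a1d at 6 (98.8%). Whole transcripts of Bcl2a1a and Bcl2a1b have 15 mismatches, so some differences lie outside the coding sequence. Bases 1 to 150 of each coding sequence are shown because reads within it can be assigned to a copy only through such positions. Of these positions 7 fall here and are in capitals.
Bcl2a1a: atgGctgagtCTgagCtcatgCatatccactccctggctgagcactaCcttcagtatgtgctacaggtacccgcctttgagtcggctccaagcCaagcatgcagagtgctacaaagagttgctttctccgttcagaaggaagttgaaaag
Bcl2a1b: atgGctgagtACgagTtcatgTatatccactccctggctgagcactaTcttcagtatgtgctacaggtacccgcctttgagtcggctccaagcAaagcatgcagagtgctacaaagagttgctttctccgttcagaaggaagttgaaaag
Bcl2a1d: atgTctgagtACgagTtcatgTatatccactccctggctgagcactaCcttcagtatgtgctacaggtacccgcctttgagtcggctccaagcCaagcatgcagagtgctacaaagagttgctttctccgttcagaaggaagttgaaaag
Of all 50-base windows of the Bcl2a1a transcript, 31.0% occur in no other annotated gene, 56.5% at 100 bases and 71.8% at 150 bases. The same shares were 20.8%, 43.2% and 58.1% for Bcl2a1b and 20.5%, 45.3% and 69.8% for Bcl2a1d. Bcl2a1b also shares 401 of its 817 exonic bases (49.1%), on the same strand, with Gm29094, which is listed at 0 counts in all 12 libraries. Read length and the treatment of reads that fit several genes are not given in the sources used here, so the level of each copy is uncertain, and the sum of the 3 is given beside them. The 7 other members have at least 91.5% of their 50-base windows to themselves.

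Bcl2a1a was the member with the largest log2 change in either genotype. Its level was 2.38, 1.94 and 1.61 CPM in the naive and 11.3, 13.3 and 12.7 in the ID8 libraries of WT. Tim4KO libraries had 1.23, 1.33 and 1.07 CPM when naive and 4.07, 4.34 and 3.34 after ID8. The 4 groups did not overlap, and WT ID8 stood above all others. It rose with challenge by 2.66 ± 0.23 (log2 ± SE, 6.34-fold, edgeR adjusted p = 2.92e-06) in WT and by 1.70 ± 0.25 (3.25-fold, edgeR adjusted p = 0.000377) in Tim4KO. Among ID8 libraries it was 3.18-fold lower in Tim4KO than in WT (log2 -1.67 ± 0.22, edgeR adjusted p = 0.0105), lower in 3 of 3 libraries. That genotype call was lost without Tim4KO ID8 1 (log2 -1.72, edgeR adjusted p = 0.0764) or Tim4KO ID8 3 (-1.57, edgeR adjusted p = 0.137), and held in the other 10 fits that each left out 1 library and under all 9 other settings. Among naive libraries its log2 difference was -0.71 ± 0.26, not called (edgeR adjusted p = 0.706), on 10 to 29 counts per library.

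Bcl2a1d had 2.38, 4.67 and 3.91 CPM in the naive and 12.7, 12.7 and 23.6 in the ID8 libraries of WT. Tim4KO libraries had 4.35, 3.06 and 3.21 CPM when naive and 8.30, 6.09 and 7.84 after ID8. All ID8 libraries lay above all naive libraries, and WT ID8 3, the library with the high cell cycle markers, was the highest. It rose by 2.14 ± 0.29 on the log2 scale in WT (4.42-fold, edgeR adjusted p = 0.000118), or by 1.78 without WT ID8 3 (3.44-fold, edgeR adjusted p = 5.55e-06). In Tim4KO it rose by 1.06 ± 0.29 (2.09-fold, edgeR adjusted p = 0.0231), a call lost without Tim4KO naive 2 (adjusted p = 0.0922), Tim4KO naive 3 (0.1), Tim4KO ID8 1 (0.0786) or Tim4KO ID8 3 (0.0659) and with limma voom (0.0557). Between genotypes after challenge its log2 difference was -1.14 ± 0.28 (95% interval -1.69 to -0.60), not called by edgeR (adjusted p = 0.161) and called by DESeq2 (adjusted p = 0.0167) and by edgeR with no filter on low counts (0.00113). The 3 Tim4KO values were below the 3 WT values. Without WT ID8 3 this genotype difference was smaller, at -0.77 (1.70-fold lower in Tim4KO), and not called (edgeR adjusted p = 0.0676).

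Bcl2a1b was the copy with the highest level in naive LPM. It had 16.6, 25.8 and 24.8 CPM in the naive and 16, 11.1 and 16.2 in the ID8 libraries of WT. Tim4KO libraries had 10.8, 6.66 and 13.0 CPM when naive and 11.5, 11.3 and 12.5 after ID8. WT naive was the highest group, and its lowest library lay only just above the highest of WT ID8. The fall with challenge in WT was 1.55-fold (log2 -0.64 ± 0.23, edgeR adjusted p = 0.049) and close to the threshold: it was kept without WT ID8 3 (edgeR adjusted p = 0.022) but lost without WT naive 2 (0.175), WT naive 3 (0.157), WT ID8 1 (0.0618), WT ID8 2 (0.199), Tim4KO naive 1 (0.0683), Tim4KO naive 3 (0.0534), Tim4KO ID8 1 (0.0672), Tim4KO ID8 2 (0.078) or Tim4KO ID8 3 (0.0761). It was also lost with no filter on low counts (edgeR adjusted p = 0.0767), with the receptor gene background as a covariate (0.105) and with only the 2 groups fitted (0.0536). In Tim4KO its log2 change with challenge was 0.19 ± 0.24, not called (edgeR adjusted p = 0.64). Among naive libraries the 3 Tim4KO values lay below the 3 WT values (log2 -1.12 ± 0.24), which edgeR did not call (adjusted p = 0.21) and DESeq2 did (adjusted p = 0.00606), as did edgeR without WT ID8 3 (adjusted p = 0.0281).

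Summed over the 3 copies, A1 transcripts had 28.0 ± 5.87 CPM in the naive and 43.2 ± 8.15 in the ID8 libraries of WT. Tim4KO libraries had 14.9 ± 3.38 CPM when naive and 23.1 ± 1.18 after ID8. The sum rose with challenge by 0.62 ± 0.19 in WT (1.54-fold, edgeR adjusted p = 0.0217) and by 0.61 ± 0.19 in Tim4KO (1.53-fold, edgeR adjusted p = 0.0426). The WT call was lost without WT naive 1 (adjusted p = 0.0949) or WT ID8 3 (0.0513), and under upper-quartile scaling (0.113) and the background covariate (0.282), among 4 settings. The Tim4KO call for Bcl2a1a+b+d summed was lost without WT naive 3 (0.0512), Tim4KO naive 2 (0.184), Tim4KO naive 3 (0.0567), Tim4KO ID8 1 (0.145), Tim4KO ID8 2 (0.0756) or Tim4KO ID8 3 (0.105), and under 5 settings. Tim4KO libraries were below WT libraries both in the naive state (log2 -0.90 ± 0.19, edgeR adjusted p = 0.242) and after challenge (-0.91 ± 0.19, edgeR adjusted p = 0.0958), with no overlap in either. Neither difference was called with all libraries, and both were called without WT ID8 3 (edgeR adjusted p of 0.0266 and 0.0154) and by DESeq2 (adjusted p of 0.0113 and 0.00216).

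The groups differed in how these reads divided between the copies. Bcl2a1b held 79.7 ± 2.07% of the reads in WT naive, 67.2 ± 7.57% in Tim4KO naive, 50.9 ± 2.48% in Tim4KO ID8 and 33.6 ± 5.61% in WT ID8. The share of Bcl2a1a was 7.48 ± 3.21%, 8.58 ± 3.08%, 17.1 ± 2.93% and 29.4 ± 5.94% in the same order, and that of Bcl2a1d 12.8 ± 1.63%, 24.3 ± 4.97%, 32.0 ± 3.52% and 37.0 ± 7.01%. No library of one group overlapped another for Bcl2a1b, while the 2 naive groups overlapped for Bcl2a1a and the 2 ID8 groups for Bcl2a1d. The shares rest on few reads: Bcl2a1a had 10 of 83 reads in Tim4KO naive 2 (12.05%, exact Clopper-Pearson 95% interval 5.93 to 21.0%) and 278 of 1149 in WT ID8 3 (24.2%, 21.7 to 26.8%). These intervals cover counting error only, and the shares were not tested.

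**Figure D2:**
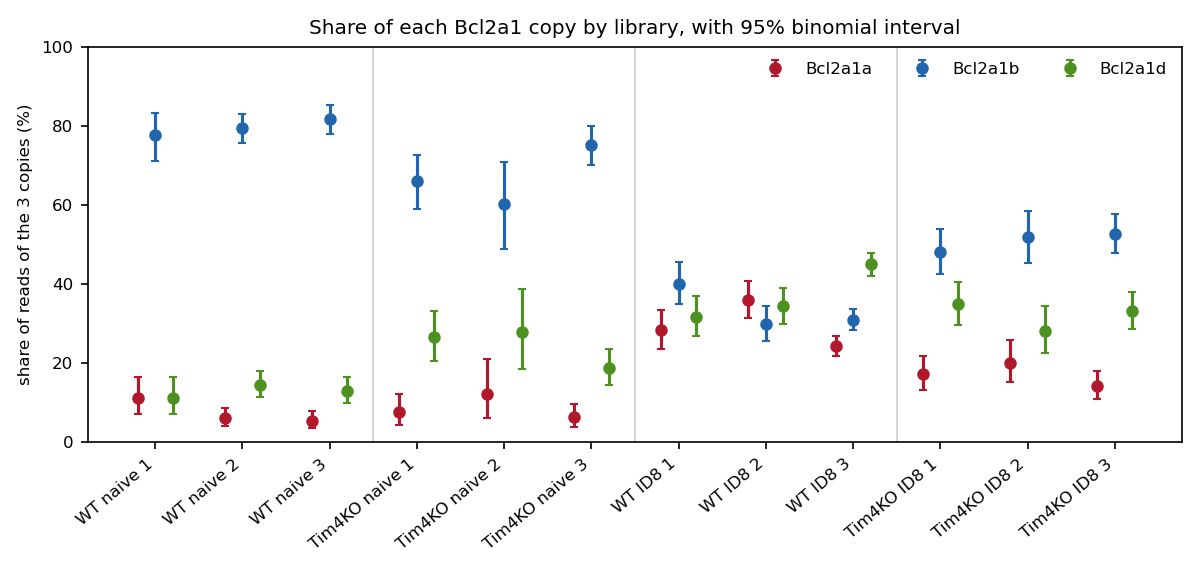
Share of the reads of the 3 Bcl2a1 copies assigned to each copy (%), by library, with exact 95% binomial intervals. Bcl2a1b holds 60.2 to 81.8% in the 6 naive libraries and 29.9 to 52.7% in the 6 ID8 libraries.

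The promoter windows of the copies (300 bases around each annotated start, RefSeq GRCm38.p6) are also near-identical where they align. Bcl2a1a and Bcl2a1b have 254 identical bases and 2 mismatches (99.2%), with 88 gap positions. Bcl2a1a and Bcl2a1d have 288 identical bases and 6 mismatches (98.0%), with 12 gap positions. Bcl2a1b and Bcl2a1d have 247 identical bases and 3 mismatches (98.8%), with 100 gap positions. The percentages leave out the gaps, so parts of the windows are not aligned. The stretches below are shown because the read counts of the copies went different ways in these libraries beside nearly the same upstream sequence. Capitals mark TGAATCA, the only match to the AP-1 motif TGANTCA in each window.
Bcl2a1a, chr9:88956740-88956889, plus strand: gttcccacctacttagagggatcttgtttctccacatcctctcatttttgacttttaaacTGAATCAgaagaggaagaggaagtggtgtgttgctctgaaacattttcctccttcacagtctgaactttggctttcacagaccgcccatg
Bcl2a1b, chr9:89199049-89199198, plus strand: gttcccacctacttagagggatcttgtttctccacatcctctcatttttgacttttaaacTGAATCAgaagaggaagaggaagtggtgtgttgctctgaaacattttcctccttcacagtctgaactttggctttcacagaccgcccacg
Bcl2a1d, chr9:88731875-88732024, minus strand: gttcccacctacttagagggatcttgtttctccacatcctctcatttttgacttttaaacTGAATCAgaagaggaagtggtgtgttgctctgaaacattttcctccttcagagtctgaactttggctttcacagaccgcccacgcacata
The match lies 120 bases before the annotated start in Bcl2a1a, 164 in Bcl2a1b and 114 in Bcl2a1d. On both strands, TGANTCA occurs in 7.81% of the 32851 promoter windows in the RefSeq table and in no window of another member. The kappaB consensus (8.46% of windows) matched a promoter of Bcl2l1 and one of Bbc3. Neither the GAS motif TTCNNNGAA (8.30% of windows) nor the CRE motif TGACGTCA (1.79%) was found in a member's window. A match describes the letters only.

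Bcl2l1 (chr2:152758732-152833803) encodes BCL-XL, which restrains BAX and BAK and binds BH3-only proteins. Its level was 30.1, 23.2 and 27.3 CPM in the naive and 61.2, 88.1 and 47.9 in the ID8 libraries of WT. Tim4KO libraries had 35.5, 35.0 and 32.5 CPM when naive and 46.0, 52.0 and 44.3 after ID8. Every ID8 library lay above every naive library, and WT ID8 3 was the lowest of the WT ID8 libraries, within the Tim4KO ID8 range. In WT it rose by 1.29 ± 0.18 (2.45-fold, edgeR adjusted p = 0.000162), or by 1.51 without WT ID8 3 (2.85-fold, edgeR adjusted p = 8.06e-08). In Tim4KO the log2 change was 0.46 ± 0.18 (1.38-fold, 95% interval 0.11 to 0.82), not called by edgeR (adjusted p = 0.0963) with all libraries and called without WT ID8 2 (0.0232) or WT ID8 3 (0.0214), which are in neither group of that comparison but are part of the joint fit. Fitting only the 2 groups (edgeR adjusted p = 0.0144) or adding the background covariate (0.0285) also gave a call. After challenge, the Bcl2l1 genotype difference was not called with all libraries (log2 -0.47 ± 0.18, edgeR adjusted p = 0.327) and was called without WT ID8 3 (-0.66, edgeR adjusted p = 0.0141).

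Mcl1 (chr3:95656944-95663179), whose protein is a short-lived guard against BAK and BIM, was the most abundant member. Its level ran from 565 to 726 CPM in the naive and 488 to 570 in the ID8 libraries of WT. Tim4KO libraries had 591 to 819 CPM when naive and 542 to 579 after ID8. The ID8 values were the lower ones, overlapping naive values in WT and not in Tim4KO. The log2 change with challenge was -0.30 ± 0.14 in WT (edgeR adjusted p = 0.107) and -0.32 ± 0.14 in Tim4KO (edgeR adjusted p = 0.132), neither called. Both were called with DESeq2 (adjusted p of 0.0314 and 0.0305), under upper-quartile scaling (edgeR, 0.00443 and 0.0222) and with a stricter count filter (edgeR, 0.00874 and 0.0196). Between genotypes the log2 difference was 0.14 ± 0.14 in naive and 0.12 ± 0.14 in ID8 libraries.

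Bcl2 (chr1:106538176-106714290), the founding pro-survival gene of the family, showed no called change. Its level was 12.2 to 14.8 CPM in the naive and 11.3 to 19.9 in the ID8 libraries of WT. Tim4KO libraries had 11.5 to 13.8 CPM when naive and 13.1 to 14.6 after ID8, and the groups overlapped throughout. The 95% interval of its log2 change with challenge ran from -0.31 to 0.48 in WT and from -0.27 to 0.53 in Tim4KO. Bcl2 overlaps D630008O14Rik on the opposite strand, a gene with 0 to 12 counts per library, and strand handling is not given in the sources used here.

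Bak1 (chr17:27019812-27028627) encodes BAK, the effector resident in the mitochondrial membrane. It had 26.7, 24.4 and 21.7 CPM in the naive and 59.7, 38.5 and 81.4 in the ID8 libraries of WT. Tim4KO libraries had 29.0, 13.6 and 20.4 CPM when naive and 51.0, 51.3 and 57.1 after ID8. Naive and ID8 libraries did not overlap in either genotype, and WT ID8 3 was the highest of all. The rise was 1.31 ± 0.27 in WT (2.48-fold, edgeR adjusted p = 0.003) and 1.33 ± 0.27 in Tim4KO (2.51-fold, edgeR adjusted p = 0.00533). Without WT ID8 3 the WT rise was 1.04 (2.05-fold, edgeR adjusted p = 0.00137), and with the receptor gene background as a covariate it was 1.07 (edgeR adjusted p = 0.0517). Bak1 shares exonic bases with Ggnbp1 on the opposite strand, which had 3 to 25 counts per library against 102 to 1784 for Bak1.

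Bax (chr7:45461695-45466903) encodes the cytosolic effector that inserts into the membrane when activated. It had 41.8, 36.5 and 33.3 CPM in the naive and 54.6, 52.9 and 48.0 in the ID8 libraries of WT. Tim4KO libraries had 32.6, 24.2 and 35.3 CPM when naive and 46.7, 37.7 and 48.2 after ID8. The ID8 values lay above the naive ones within each genotype, by a smaller factor than for Bak1. The rise was 0.48 ± 0.15 in WT (1.39-fold, edgeR adjusted p = 0.0259) and 0.52 ± 0.15 in Tim4KO (1.43-fold, edgeR adjusted p = 0.0297). Upper-quartile scaling ended both calls (edgeR adjusted p of 0.252 and 0.106), with log2 changes of 0.24 and 0.40 beside the shifted medians of all genes given above. A mean count of 50 or more as the filter also ended both (0.141 and 0.0697), as did fitting only the 2 groups in WT (0.0785). The WT call was also lost without WT naive 2 (0.0526) or WT naive 3 (0.0891), and the Tim4KO call without Tim4KO naive 2 (0.139), Tim4KO ID8 1 (0.101) or Tim4KO ID8 3 (0.109).

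Bcl2l11 (chr2:128126038-128162547) encodes BIM, a BH3-only protein that binds all pro-survival members. It had 32.9, 39.1 and 43.3 CPM in the naive and 20.8, 22.4 and 21.8 in the ID8 libraries of WT. Tim4KO libraries had 27.1, 40.1 and 34.1 CPM when naive and 21.4, 22.2 and 21.9 after ID8. The 6 ID8 libraries lay in a narrow range below all 6 naive libraries. The fall was 1.78-fold in WT (log2 -0.83 ± 0.15, edgeR adjusted p = 0.000888) and 1.54-fold in Tim4KO (-0.63 ± 0.15, edgeR adjusted p = 0.00991). The WT call held in all 21 alternative fits. The Tim4KO call was lost without Tim4KO naive 2 (edgeR adjusted p = 0.0849), Tim4KO ID8 1 (0.0572) or Tim4KO ID8 2 (0.0612). After challenge the genotypes differed by 0.01 ± 0.15 on the log2 scale (95% interval -0.28 to 0.30).

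Bbc3 (chr7:16308398-16318334) encodes PUMA, the BH3-only protein best known as a p53 target. It had 13.0, 11.1 and 15.8 CPM in the naive and 8.17, 7.56 and 13.3 in the ID8 libraries of WT. Tim4KO libraries had 13.0, 12.5 and 13.9 CPM when naive and 15.5, 10.4 and 14.5 after ID8. WT ID8 3 lay with the naive and Tim4KO libraries, while the other WT ID8 libraries were below all the rest. With all libraries, neither the WT challenge change (log2 -0.44 ± 0.23, edgeR adjusted p = 0.139) nor the genotype difference after challenge (0.46 ± 0.23, edgeR adjusted p = 0.426) was called. Without WT ID8 3 both were, the WT fall at 1.67-fold (log2 -0.74, edgeR adjusted p = 0.0107) and the genotype difference at 1.73-fold higher in Tim4KO (0.79, edgeR adjusted p = 0.0278). The WT fall was also called under upper-quartile scaling (edgeR adjusted p = 0.0379) and with the background covariate (0.0191). In Tim4KO the challenge change of Bbc3 was 0.04 ± 0.22.

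**Figure D3:**
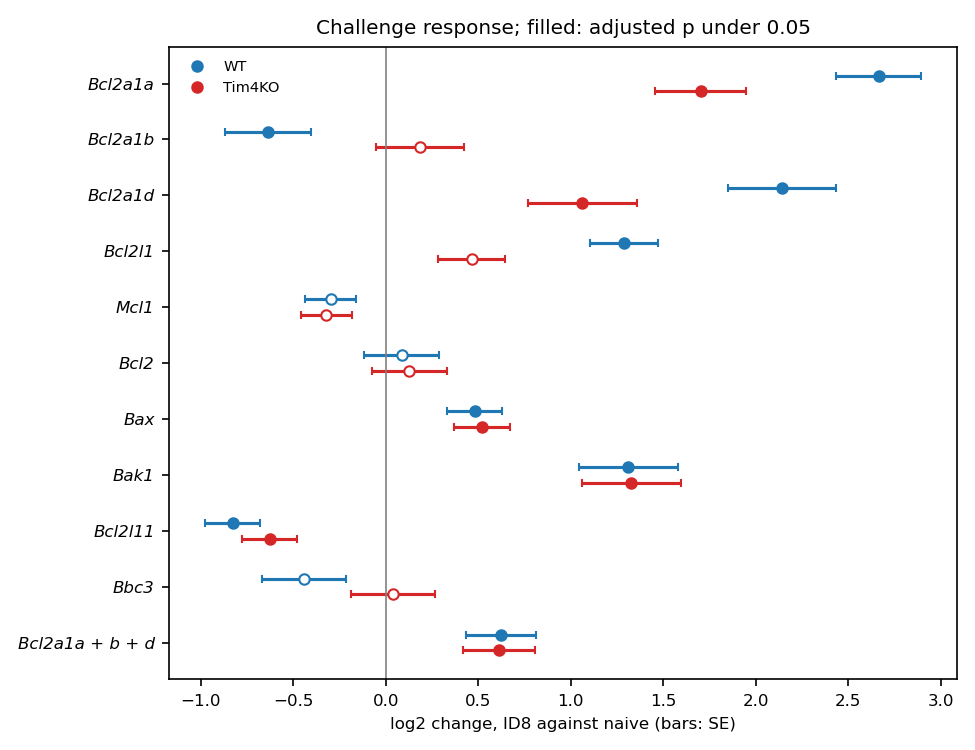
Log2 change with challenge (ID8 against naive) of each gene and of the summed Bcl2a1 copies, WT in blue and Tim4KO in red, bars ± SE, filled where the edgeR adjusted p was under 0.05. Bcl2a1a lies farthest to the right in both genotypes (2.66 and 1.70), and Bcl2l11 lies to the left in both (-0.83 and -0.63).

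Levels of different genes were compared per kilobase of exon, over the full exonic length of each gene. The Bcl2a1 copies share much of that length, with 20.5 to 31.0% of their 50-base windows in no other gene. How shared reads were counted is not given, so the places of these copies are uncertain. Mcl1 was the highest member in every group. It had 188 ± 23.6 (naive) and 153 ± 12.4 CPM per kb (ID8) in WT and 207 ± 33.4 and 166 ± 6.07 in Tim4KO. Bcl2 had the lowest mean in every group, from 1.38 to 1.57 CPM per kb, and overlapped Bcl2a1a in Tim4KO naive. In WT naive, Bcl2a1b (27.4 ± 6.19) and Bax (23.6 ± 2.74) followed Mcl1 and overlapped each other. Bak1 (10.1 ± 1.04) came next, then Bbc3, Bcl2l1, Bcl2l11 and Bcl2a1d from 6.27 to 4.24, and Bcl2a1a at 2.41 ± 0.476, each of these 5 overlapping its neighbours among them and none reaching Bak1. In Tim4KO naive, Bax (19.5 ± 3.65), Bcl2a1b (12.4 ± 3.95), Bak1 (8.72 ± 3.20) and Bcl2l1 (7.49 ± 0.353) followed Mcl1, again overlapping from neighbour to neighbour. In WT ID8 the places from Bax (32.9 ± 2.16) down through Bak1, Bcl2a1d, Bcl2a1b, Bcl2a1a and Bcl2l1 (14.3 ± 4.46) overlapped from neighbour to neighbour, and Bbc3 (4.56 ± 1.49) and Bcl2l11 (2.70 ± 0.0999) lay apart below them. In Tim4KO ID8, Bax (28.0 ± 3.62), Bak1 (22.1 ± 1.42), Bcl2a1b (14.3 ± 0.782) and Bcl2l1 (10.3 ± 0.881) followed Mcl1 without overlap. Bcl2a1a (4.78 ± 0.629) was eighth there and overlapped Bbc3 above it.

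Between genotypes, Bcl2a1a after challenge was the 1 member called in the edgeR fit of all libraries with the low-count filter. In naive LPM, 0 of 10 members were called by edgeR, where 0.0439% of all genes were called. At an unadjusted p under 0.05, 2 of 10 members and 999 of all genes passed, and DESeq2 called 1 member (Bcl2a1b) and limma voom 0. After challenge 1 of 10 was called by edgeR (Bcl2a1a), against 0.0565% of all genes, 2 by DESeq2 (Bcl2a1d also) and 1 by limma voom. At an unadjusted p under 0.05, 3 members and 1935 of all genes passed. The median log2 difference of the members was -0.14 in naive and -0.20 in ID8 libraries, beside -0.0042 and 0.014 over all genes. Without WT ID8 3, 3 of 10 members were called after challenge, Bcl2a1a and Bcl2l1 lower and Bbc3 higher in Tim4KO, against 5.74% of all genes. The naive comparison then had 1 member called (Bcl2a1b), although the library left out is in neither of its groups. That fit tested 17374 genes, and the cause of the gained call was not tested.

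**Figure D4:**
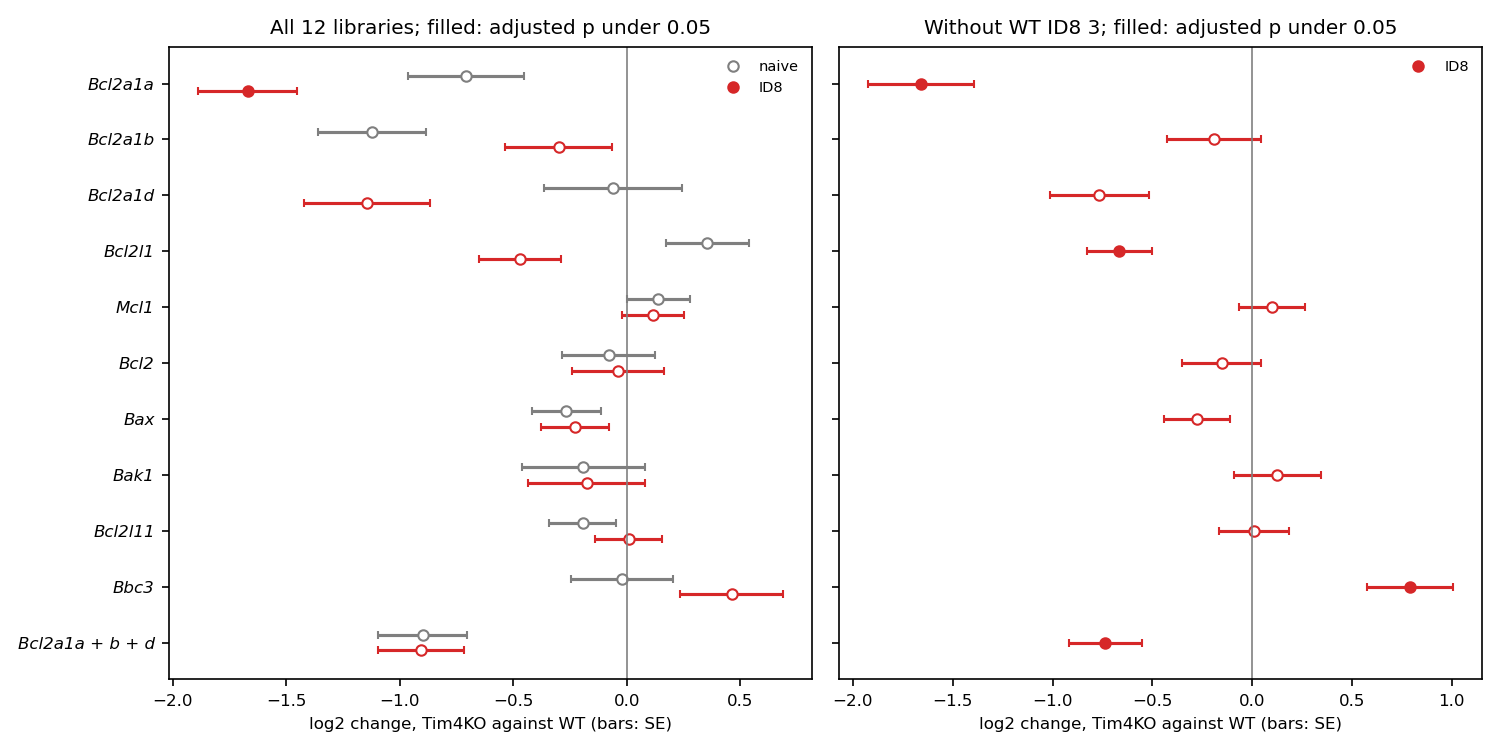
Log2 difference of Tim4KO from WT, bars ± SE, filled where the edgeR adjusted p was under 0.05. The left panel has naive libraries (grey) and ID8 libraries (red) in the fit of all 12, where Bcl2a1a is the filled gene at -1.67; the right panel has the ID8 comparison without WT ID8 3, where Bcl2l1 (-0.66), Bbc3 (0.79) and the summed copies (-0.73) are filled too.

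Whether the challenge response itself differed between genotypes was tested with the interaction term, which called 0 of 10 members and 0% of all genes in edgeR. It called 0 members with DESeq2 and with limma voom, and 4 members and 1186 of all genes had an unadjusted p under 0.05. The 4 were Bcl2a1a (log2 -0.96 ± 0.34, 95% interval -1.62 to -0.30), Bcl2a1b (0.82 ± 0.33, 0.17 to 1.48), Bcl2a1d (-1.08 ± 0.41, -1.89 to -0.28) and Bcl2l1 (-0.83 ± 0.26, -1.33 to -0.32), each with an edgeR adjusted p of 0.668. The estimates for Bcl2a1a, Bcl2a1d and Bcl2l1 were smaller rises in Tim4KO than in WT, and that for Bcl2a1b had the opposite sign. For the 3 copies summed the interaction was -0.01 ± 0.27 (edgeR adjusted p = 0.995). Without WT ID8 3, Bcl2l1 was called (-1.03, edgeR adjusted p = 0.0127), 1 of 10 members against 2.12% of all genes. In that fit the Bcl2a1d estimate was smaller, at -0.70 ± 0.36, and not called, so its size rested in part on WT ID8 3. The estimates for Bcl2a1a and Bcl2a1b were -0.96 and 0.92 there, also not called. With all libraries, the interaction for Bax, Bak1, Mcl1 and Bcl2 lay between -0.02 and 0.04, with 95% intervals that reached at most 0.75 in either direction.

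Among 16 further genes of the BCL2 family, 10 could be tested. Pmaip1, which encodes the BH3-only protein NOXA, an inhibitor of MCL1, rose 2.29-fold in WT (10.8 to 24.8 CPM, log2 1.20 ± 0.20, edgeR adjusted p = 0.000611) and 1.76-fold in Tim4KO (10.5 to 18.5 CPM, 0.82 ± 0.20, edgeR adjusted p = 0.0132). Bcl2l13, encoding a mitochondrial BCL2-like protein, rose 1.501-fold and 1.36-fold (edgeR adjusted p of 0.00359 and 0.0279). Bmf, another BH3-only gene, fell in WT from 4.10 to 1.06 CPM (log2 -1.83 ± 0.43, edgeR adjusted p = 0.00522), or by 2.75 on the log2 scale without WT ID8 3, and had a log2 change of -0.96 ± 0.42 in Tim4KO (edgeR adjusted p = 0.135). Bid, whose product links death receptors to mitochondria, fell in Tim4KO from 39.9 to 24.7 CPM (-0.69 ± 0.18, edgeR adjusted p = 0.0173) and had a log2 change of -0.34 ± 0.18 in WT (edgeR adjusted p = 0.161). So 2 of 10 were called higher and 1 lower in each genotype, where 19.5% of all genes were higher and 12.3% lower in WT and 11.5% and 5.06% in Tim4KO, with a median log2 change of -0.16 in WT and 0.04 in Tim4KO. The Tim4KO calls were lost on leaving out single libraries: Pmaip1 without Tim4KO naive 2 or Tim4KO ID8 1, Bid without Tim4KO naive 2 or any Tim4KO ID8 library, and Bcl2l13 without Tim4KO naive 2 or 3 or any Tim4KO ID8 library and under 2 settings. The highest edgeR adjusted p over all alternatives was 0.0618, 0.0862 and 0.156. Bcl2a1c, a further A1 copy, had 0 to 3 counts per library and was below the filter with Bcl2l10, Bok, Bik, Bcl2l14 and Bcl2l15.

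**Figure D5:**
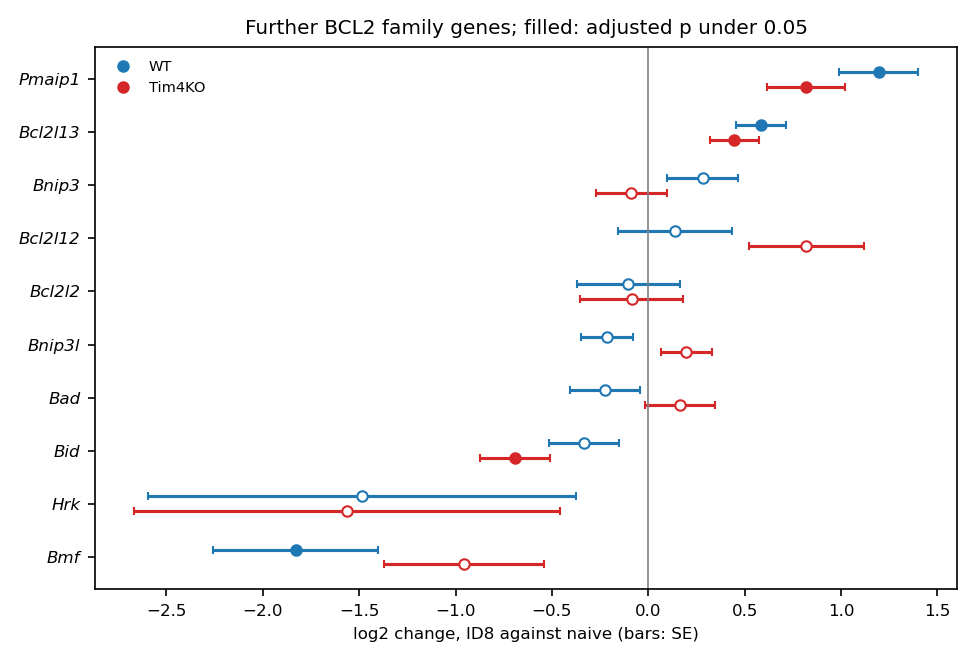
Log2 change with challenge of the 10 further BCL2 family genes tested, WT in blue and Tim4KO in red, bars ± SE, filled where the edgeR adjusted p was under 0.05. Pmaip1 and Bcl2l13 are filled to the right in both genotypes, Bmf to the left in WT and Bid to the left in Tim4KO; Hrk has wide bars at mean levels of 0.281 to 0.885 CPM.

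Downstream of the mitochondrion, 7 of 23 genes of the apoptosome, caspases and their inhibitors were higher and 2 lower in WT, and 6 higher and 3 lower in Tim4KO (median log2 change 0.29 and 0.21). For this and the next 4 lists, the shares over all genes are 19.5% higher and 12.3% lower in WT, and 11.5% and 5.06% in Tim4KO. Cycs, encoding cytochrome c, rose 3.70-fold in WT, from 96.6 to 357 CPM (log2 1.89 ± 0.21, edgeR adjusted p = 2.35e-05), and 2.27-fold in Tim4KO (1.18 ± 0.20, edgeR adjusted p = 0.00139). Aifm1, for the respiratory chain and death factor AIF, rose by 1.27 and 0.90, and Vdac1, for the outer membrane channel, by 1.11 and 0.73, all 4 changes called in every alternative fit. Among the lower genes, Naip5, an inhibitor-of-apoptosis family member and flagellin sensor, fell by 0.53 in WT, where the groups overlapped, and by 0.63 in Tim4KO. These calls were lost in 9 and 5 of the 12 fits that each left out 1 library (highest edgeR adjusted p 0.187 and 0.14). Diablo, which encodes the antagonist of such inhibitors SMAC, fell in WT from 4.87 to 2.77 CPM (log2 -0.82 ± 0.25, edgeR adjusted p = 0.0231), and this call was lost without WT ID8 3 (0.0789), WT ID8 2, WT naive 1 or WT naive 2 (highest over all alternatives 0.262). In Tim4KO the inhibitors Birc2 (log2 -0.50, edgeR adjusted p = 0.0227) and Xiap (-0.49, edgeR adjusted p = 0.0498) were also called lower. Birc2 lost its call without any 1 of the 6 Tim4KO libraries (highest 0.222), and Xiap was called in 7 of 21 alternative fits.

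The death receptor arm had 3 of 16 genes higher and 0 lower in WT, and 2 higher and 2 lower in Tim4KO (median log2 change 0.10 and 0.11), beside 19.5% higher and 12.3% lower of all genes in WT and 11.5% and 5.06% in Tim4KO. The shares of higher genes are near those over all genes. The genes higher in both genotypes were Mlkl and Ripk3, the executioner and a kinase of necroptosis. Mlkl rose from 18.2 to 61.8 CPM in WT (log2 1.77 ± 0.20, edgeR adjusted p = 2.73e-05) and from 20.5 to 45.9 CPM in Tim4KO (1.16 ± 0.20, edgeR adjusted p = 0.00123), and Ripk3 by 1.35 ± 0.27 and 1.47 ± 0.27, the WT call being lost with the background covariate (edgeR adjusted p = 0.073). Tradd, an adaptor of the TNF receptor, rose by 0.54 in WT, a call lost under 3 settings (highest edgeR adjusted p 0.0986). Cflar, encoding the caspase-8 inhibitor FLIP, fell in Tim4KO from 144 to 90.2 CPM (-0.67 ± 0.18, edgeR adjusted p = 0.0194) and Fas, a death receptor, from 60.1 to 40.3 CPM (-0.57 ± 0.17, edgeR adjusted p = 0.0311). The Cflar call was lost without Tim4KO naive 2 or 3 or any Tim4KO ID8 library (highest edgeR adjusted p 0.114). The Fas call was lost without WT naive 2, any Tim4KO naive library, Tim4KO ID8 2 or Tim4KO ID8 3 (highest over all alternatives 0.225).

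Of 17 tested p53, FOXO and stress inducers of BH3-only genes, 5 were higher and 4 lower in WT, and 3 higher and 2 lower in Tim4KO (median log2 change 0.04 and -0.06), beside the same shares of all genes (19.5% and 12.3%, 11.5% and 5.06%). Cdkn1a, which encodes the cell cycle inhibitor p21, rose by 1.21 ± 0.18 in WT (44.4 to 102 CPM, edgeR adjusted p = 0.000235) and by 0.71 ± 0.18 in Tim4KO (edgeR adjusted p = 0.014). Trp53, which encodes p53, rose by 0.85 and 0.56. In Tim4KO the Cdkn1a call was lost without Tim4KO naive 2 or Tim4KO ID8 3 (highest edgeR adjusted p 0.0593) and the Trp53 call without Tim4KO naive 2, Tim4KO naive 3 or Tim4KO ID8 2 (0.0806). Phlda3 rose in WT from 3.83 to 10.0 CPM (1.40 ± 0.24, edgeR adjusted p = 0.000704). Bbc3, set beside the genes of this list, was not called in either genotype by the edgeR fit of all libraries with TMM scaling. The exceptions under other settings are given above. E2f1, a cell cycle transcription factor, rose in Tim4KO by 1.48 ± 0.31 (edgeR adjusted p = 0.00661) and in WT by 1.35 ± 0.30 (edgeR adjusted p = 0.00606), the latter 0.77 without WT ID8 3, the library with the high cell cycle markers. Sesn1, a stress-induced regulator of growth signalling, fell by 1.16 in WT (219 to 98.2 CPM) and by 0.71 in Tim4KO. Foxo3, a transcription factor for Bcl2l11 in other cells, fell in WT from 28.8 to 18.2 CPM (-0.66 ± 0.19, edgeR adjusted p = 0.0157) and Gadd45a from 29.6 to 15.5 CPM (-0.94 ± 0.25, edgeR adjusted p = 0.012). Both calls were lost without WT naive 2 or WT ID8 2, and that of Foxo3 without WT naive 3 (highest 0.0792 for Foxo3 and 0.086 for Gadd45a). Foxo1 was called lower in Tim4KO at the threshold (-0.41, edgeR adjusted p = 0.0495), in 6 of 21 alternative fits.

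Of 20 NF-kB and STAT regulators of survival genes, 5 were higher and 0 lower in WT, and 1 higher and 2 lower in Tim4KO (median log2 change 0.01 and -0.08). In total 31.8% of all genes were called in WT and 16.6% in Tim4KO, so neither count stands above that background. Pim1, a STAT-induced survival kinase, rose in WT from 45.5 to 76.4 CPM (0.74 ± 0.14, edgeR adjusted p = 0.000968), Csf2ra, the GM-CSF receptor alpha chain, by 0.64 ± 0.12, and Chuk, encoding an IkappaB kinase, by 0.54 ± 0.13, a call lost under 2 settings (highest edgeR adjusted p 0.0763). In Tim4KO, Csf2ra rose by 0.77 ± 0.12 (255 to 434 CPM, edgeR adjusted p = 0.000759), and Stat5b (-0.49) and Nfkb1 (-0.44) were called lower near the threshold (edgeR adjusted p of 0.0411 and 0.0431), each lost in 9 of the 12 fits that left out 1 library (highest 0.231 and 0.234). Of 16 genes for MCL1 and BIM protein turnover, 6 were higher and 3 lower in WT, and 0 higher and 1 lower in Tim4KO (median log2 change 0.23 and 0.24), beside 31.8% and 16.6% of all genes called. Dynll1, a dynein light chain that binds BIM, rose by 1.15 ± 0.18 in WT (80.9 to 180 CPM, edgeR adjusted p = 0.000388), Ywhaz, a 14-3-3 protein gene, by 0.90 ± 0.16, and Fbxw7, encoding a ubiquitin ligase subunit that targets MCL1, by 0.56 ± 0.11. Trib2 fell in WT from 8.08 to 1.81 CPM (-2.15 ± 0.30, edgeR adjusted p = 0.000148), and Usp13, for a deubiquitinase of MCL1, from 1.57 to 0.2205 CPM, a level near the floor, with the call lost without WT naive 1, WT naive 3 or WT ID8 2. Tpt1, encoding a translationally controlled protein that binds MCL1, fell by 0.49 in WT (1011 to 719 CPM) and by 0.46 in Tim4KO, calls lost in 5 and 10 of the 12 fits that left out 1 library (highest edgeR adjusted p 0.127 and 0.227).

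Over these 6 lists, 38 of 102 tested genes were called in WT (against 31.8% of all genes) and 25 in Tim4KO (against 16.6%). In both genotype comparisons and in the interaction 0 were called by edgeR, with 10 (naive), 15 (ID8) and 13 (interaction) of 102 at an unadjusted p under 0.05, beside 999, 1935 and 1186 of all 15943 genes. Without WT ID8 3, 7 were called between genotypes after challenge (Bmf, E2f1, Sesn1 and Trib2 higher and Cycs, Pim1 and Ywhaz lower in Tim4KO) and 3 in the interaction (Chuk, Pim1 and Dynll1), all named after their values were seen. The same fit called 5.74% and 2.12% of all genes, close to the shares of these lists. Pim1 had the smallest adjusted p of these between genotypes, with a log2 difference of -0.80 (edgeR adjusted p = 0.00148), against -0.69 ± 0.13 and 0.0839 with all libraries. Of the 26 named WT challenge calls 17 held in every alternative fit, and of the 22 named Tim4KO calls 8.

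The genes with the nearest profile over the 12 libraries were found by the root mean square difference of log2 CPM after subtracting each gene's mean, over 10219 genes averaging 50 counts or more. For Bcl2a1a, whose own root mean square deviation was 1.22, these were Glipr2 (0.35), Mthfd2 (0.40) and Hsp90aa1 (0.41). For Bcl2a1d they were Kpna2, Tuba1c and Tubb4b (0.29 to 0.32), for Bcl2l1 Pphln1, Ipo13 and Dhx29 (0.14 to 0.15) and for Bak1 Cox5a, Coq7 and Aldh1b1 (0.16 to 0.22). For Bax they were Coq4, Bnip1 and Chmp6 (0.11 to 0.12), and for Bcl2l11 S1pr1, Adipor1 and Phf21a (0.10 to 0.12). Bcl2a1b had no neighbour nearer than Mrpl43, Cbr4 and Kctd12b, all at 0.33 beside its own deviation of 0.51. Within the family the nearest pair was Mcl1 and Bcl2l11 (0.27), and Bcl2a1a was nearest to Bcl2a1d (0.56). The measure is not scaled, so genes that vary little lie close on it, and the own deviation of Bcl2l11 was 0.39.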

How the data were processed

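RNA from sorted LPM was made into libraries with a SMART-Seq mRNA kit, per the labels' protocols. FastQC, STAR 2.5, mm10 and GRCm39 are listed, with no role or order, per the submitters' processing notes. The counting step, annotation release, strand setting, read length and treatment of multi-mapping reads are not given in the sources used here. The deposited values are raw counts per Ensembl gene, whole numbers that the authors did not normalise, with library totals of 7358559 to 23170244. All 12 libraries were fitted with 4 group means (8 residual degrees of freedom) in edgeR 4.0.16 (R 4.3.3, TMM, filterByExpr, robust quasi-likelihood F test), with Benjamini-Hochberg adjustment over 15943 genes. CPM are TMM-normalised, and each SE was derived from the log2 change and its F statistic. The script was tested on simulated data. Alternatives were DESeq2 1.42.0, limma 3.58.1 (voom), other scalings and filters, the 2 groups alone, a replicate block, a background covariate, summed Bcl2a1 copies and each library left out.

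The members, lists and tests were chosen with earlier results of these data known. Genes named are the members, Timd4, the genes of each list called between genotypes or in the interaction, up to 3 called genes with the smallest p in each direction of each challenge comparison, and the 3 nearest profiles of each called member. The labels do not say that replicates are separate animals, so p-values measure only the spread between these samples, which may be technical. No 2 libraries of a group agreed within sampling noise (chi-square per degree of freedom at least 6.15). Same-numbered libraries deviated together (every correlation over 0.1: 0.103, 0.105 and 0.309) in WT ID8 against WT naive. In each other comparison at least 1 pair was under 0.1, with 0.328, 0.070 and 0.136 in Tim4KO naive against WT naive and a lowest value of -0.08 in Tim4KO ID8 against Tim4KO naive. Sequences come from RefSeq GRCm38.p6 and GENCODE vM21, aligned with Biopython 1.88.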

Additional observations from a re-analysis of the deposited data

How the results depend on the processing

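The number of members called in WT after challenge stayed within 5 to 8 (7 with all libraries) over all alternatives. In Tim4KO (5) it was 4 to 6 under other settings and 2 to 6 when 1 library was left out, at 2 without Tim4KO naive 2 or Tim4KO ID8 1 and 3 without Tim4KO ID8 3. Between genotypes in naive LPM (0) it was 1 with no filter on low counts and 1 with DESeq2, Bcl2a1b in both, and 0 to 1 when 1 library was left out. After challenge (1) it was 2 with no filter and 2 with DESeq2, 0 with the Bcl2a1 copies summed, and 0 to 3 when 1 library was left out, at 0 without Tim4KO ID8 1 or Tim4KO ID8 3 and 3 without WT ID8 3. The interaction (0) had 0 to 1 when 1 library was left out. The cause of these moves was not tested, apart from the summed copies, where Bcl2a1a is not tested alone. The share of all genes called moved as well. Without WT ID8 3 it was 5.74% between genotypes after challenge, against 0.0565% with all libraries. For the WT challenge it was 29.4% against 31.8%, and for the interaction 2.12% against 0%. Such shares are not given here for most other alternatives, so the counts above are not read as particular to the members. With the replicate number as a block the counts were 7, 5, 0, 1 and 0, and no member's call changed. It also left the 26 named pathway calls in WT and ended 4 of 22 in Tim4KO (Xiap, Tpt1, Nfkb1 and Foxo1). Over the members and the summed copies, 1067 results under an alternative stayed on their side of the threshold, 50 lost a call, 27 gained one and 0 called results reversed. Uncalled differences near 0 could change sign (Bcl2l11 between genotypes after challenge kept its sign in 5 of 12 fits that left out 1 library). Depth limits Bcl2a1a most, at 10 to 29 counts in naive libraries. A left-out library leaves 2 in its group, whose spread is pooled with the others.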
